A study of Mus musculus with 12 samples.

Results

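The regulatory T cell lineage genes examined here were Foxp3, Il2ra, Ikzf2, Ikzf4, Izumo1r, Lrrc32 and Gpr83, read over 4 consecutive subsets of CD4 single positive thymocytes. Members were the probe sets that the Mouse Genome 430 2.0 annotation assigned to 1 of these symbols alone. The rule found 12 probe sets for 6 of the 7 genes, out of 45037 probe sets and 18193 genes with a probe set of their own, and Lrrc32 was not analysed here. Foxp3 and Izumo1r had 1 probe set each, Il2ra and Gpr83 had 2 each, and Ikzf2 and Ikzf4 had 3 each. No filter on low values was applied to the members.

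The series held 12 arrays, 3 for each subset: SP1 to SP4 in order of maturity. SP1 was Qa-2-6C10+CD69+, SP2 lacked 6C10 (Qa-2-6C10-CD69+), SP3 lacked CD69 as well (Qa-2-6C10-CD69-), and SP4 carried Qa-2 (Qa-2+6C10-CD69-). All came from C57BL/6 mice aged 6 to 8 weeks with no treatment, and each preparation was sorted from thymi pooled over several animals, so that no array stands for a single mouse. The labels call the arrays of a subset biological replicates. The sort kept CD4+CD8- cells and removed CD25+ and NK1.1+ cells from every subset. CD25 is the protein encoded by Il2ra, so cells with much of this receptor at the surface had been left out before RNA was taken, and all values below describe the cells that remained. The gate for SP4 did not remove mature CD44hi T cells that had returned to the thymus.

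Regulatory T cells are CD4 T cells that restrain immune responses, and Foxp3 is the transcription factor that defines them. In the thymus they arise among CD4 single positive cells in the medulla after strong T cell receptor signals, and interleukin-2 received through CD25 helps to switch on Foxp3. Precursors that carry CD25 without Foxp3, and others that carry low Foxp3 without CD25, have been described in the mouse. Ikzf2 (Helios) and Ikzf4 (Eos) encode Ikaros family transcription factors, Izumo1r encodes the folate receptor family protein FR4, and Gpr83 encodes a G protein-coupled receptor enriched in regulatory T cells. Izumo1r and Ikzf2 are also expressed by other T cells after antigen receptor signals.

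Gpr83 and Izumo1r, which both had their lowest mean in SP3, are next to each other among the protein-coding genes of mouse chromosome 9 and are read from opposite strands. Promoter sequence from RefSeq (GRCm38.p6) matched 4 of the 7 genes, with 5 start sites. The windows shown are both of Foxp3, the only member called between subsets in the fit without pairing, and those of the neighbours Izumo1r and Gpr83. Each is the 250 bases before the start site, 5′ to 3′ on the strand of the gene, and capitals mark the core GGAAA bound by NFAT, a factor activated by antigen receptor signals, read on either strand (TTTCC where it lies on the other strand).
Foxp3 start site 1, chrX:7579426-7579675, plus strand: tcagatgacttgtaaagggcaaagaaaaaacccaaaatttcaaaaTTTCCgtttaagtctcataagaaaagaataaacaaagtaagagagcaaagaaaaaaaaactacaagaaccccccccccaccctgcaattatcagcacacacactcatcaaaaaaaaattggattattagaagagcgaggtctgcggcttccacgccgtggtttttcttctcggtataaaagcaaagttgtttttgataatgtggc
Foxp3 start site 2, chrX:7580233-7580482, plus strand: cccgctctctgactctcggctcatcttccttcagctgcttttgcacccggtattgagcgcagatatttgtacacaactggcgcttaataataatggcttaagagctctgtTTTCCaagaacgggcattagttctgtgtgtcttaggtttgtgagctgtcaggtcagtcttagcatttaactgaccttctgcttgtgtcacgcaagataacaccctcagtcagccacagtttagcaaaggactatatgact
Izumo1r, chr9:14903768-14904017, minus strand: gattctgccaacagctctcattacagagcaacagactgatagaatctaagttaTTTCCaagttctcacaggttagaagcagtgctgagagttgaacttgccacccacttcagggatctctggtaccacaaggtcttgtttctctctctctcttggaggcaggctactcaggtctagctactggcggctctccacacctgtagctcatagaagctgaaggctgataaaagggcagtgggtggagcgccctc
Gpr83, chr9:14859960-14860209, plus strand: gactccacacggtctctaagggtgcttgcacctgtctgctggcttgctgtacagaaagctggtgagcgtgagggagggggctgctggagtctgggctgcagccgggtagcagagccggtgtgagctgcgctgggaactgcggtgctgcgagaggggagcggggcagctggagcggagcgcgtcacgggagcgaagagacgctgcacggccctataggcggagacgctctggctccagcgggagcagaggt
The GGAAA core began 205 bases before start site 1 and 140 bases before start site 2 of Foxp3, and 197 bases before the start of Izumo1r, and Gpr83 had none. The core was in 55.6% of all 32851 promoters of this length, so its presence sets no member apart. TATAAA (in 12.4% of promoters) lay 32 bases before start site 1 of Foxp3 and in none of the other 3 windows. TTCNNNGAA (STAT, 7.02%) matched 139 bases before start site 2 of Foxp3, where it overlapped the GGAAA core on the other strand, and in none of the other 3 windows. TGANTCA (AP-1, 6.75%) and TGTTTAC (forkhead, 3.17%) matched none of the 4. All motifs were searched on both strands. The windows differed in base composition, with 37.6% G and C at start site 1 and 46.0% at start site 2 of Foxp3, 50% in Izumo1r and 66.8% in Gpr83.

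Intensities were linear and already normalized between arrays, whose medians lay between 30.5 and 32.8. The table had no detection calls, so 19 genes of other organs (liver, retina, heart, testis, kidney and others) served to describe what a gene without expression in thymocytes would read. Their mean intensities had a median of 9.55 and a 90th percentile of 29.2, and reached 80.0 at most (Prm1). Cd3e, a T cell receptor subunit, averaged 1111 in SP4 and 1286 in SP1, and Cd4 read between 423 and 1027 over all arrays. Cd8a, which the gate should have lowered, read between 16.3 and 1838. The 4 arrays of replicate number 3 stood apart from the other 8 along the first principal component, which held 59.9% of the variance. Values from a second fit, blocked on that number, are therefore given where they change a call.

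Foxp3 was lowest in SP1 and highest in SP4. Its intensity was 24.8, 23.5 and 13.0 in SP1 (replicates 1, 2 and 3), 31.8, 42.5 and 17.7 in SP2, 34.5, 58.0 and 25.5 in SP3, and 66.2, 135.8 and 65.3 in SP4. The SP1 arrays, and replicate 3 of SP2 and of SP3, lay below the 90th percentile of the genes of other organs (29.2). The SP4 arrays lay above the arrays of all other subsets. Replicates 1 and 3 of SP4 still lay below the highest of the genes of other organs (80.0). Within each of the 3 replicates Foxp3 was higher in every later subset, a pattern held by 0.616% of all genes.

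Between the ends of the series, Foxp3 averaged 89.1 ± 40.4 in SP4 and 20.4 ± 6.50 in SP1 (SD, n = 3 each). On the log2 scale with an offset of 16, which understates changes of low genes, the difference was 1.48 (SE 0.29, 95% interval 0.84 to 2.12, limma adjusted p = 0.0361), and all 3 pairs were higher in SP4. Foxp3 was thus the 1 member of 6 that rose between SP4 and SP1, where 1.52% of all genes were called in either direction and 1.22% rose. With the replicate block the limma adjusted p was 6.67e-05, and other offsets moved the difference between 0.83 (offset of 64) and 2.04 (offset of 1). Without the block the call was lost when SP1 replicate 1, 2 or 3, SP2 replicate 1, SP3 replicate 1, or SP4 replicate 1 or 2 was left out, with a difference of 1.18 to 1.63 and a limma adjusted p of 0.0313 to 0.144 over the 12 omissions, whereas with the block it stood in all 12.

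The last step, to SP4, was where Foxp3 differed most between neighbours. It averaged 89.1 ± 40.4 in SP4 and 39.3 ± 16.8 in SP3, a log2 difference of 0.90 (SE 0.29, 95% interval 0.26 to 1.55), higher in 3 of 3 pairs and with no overlap of the arrays. This did not pass without the block (limma adjusted p = 0.656) and passed with it (limma adjusted p = 0.00828, in 11 of 12 omissions of 1 array). Against SP2, SP4 was higher by 1.14 on the log2 scale (limma adjusted p = 0.194, and 0.000862 with the block). The earlier neighbours, SP2 against SP1 (0.34) and SP3 against SP2 (0.24), overlapped in their arrays and passed in neither fit. No direct test asked whether the last step was larger than the earlier ones.

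**Figure D1:**
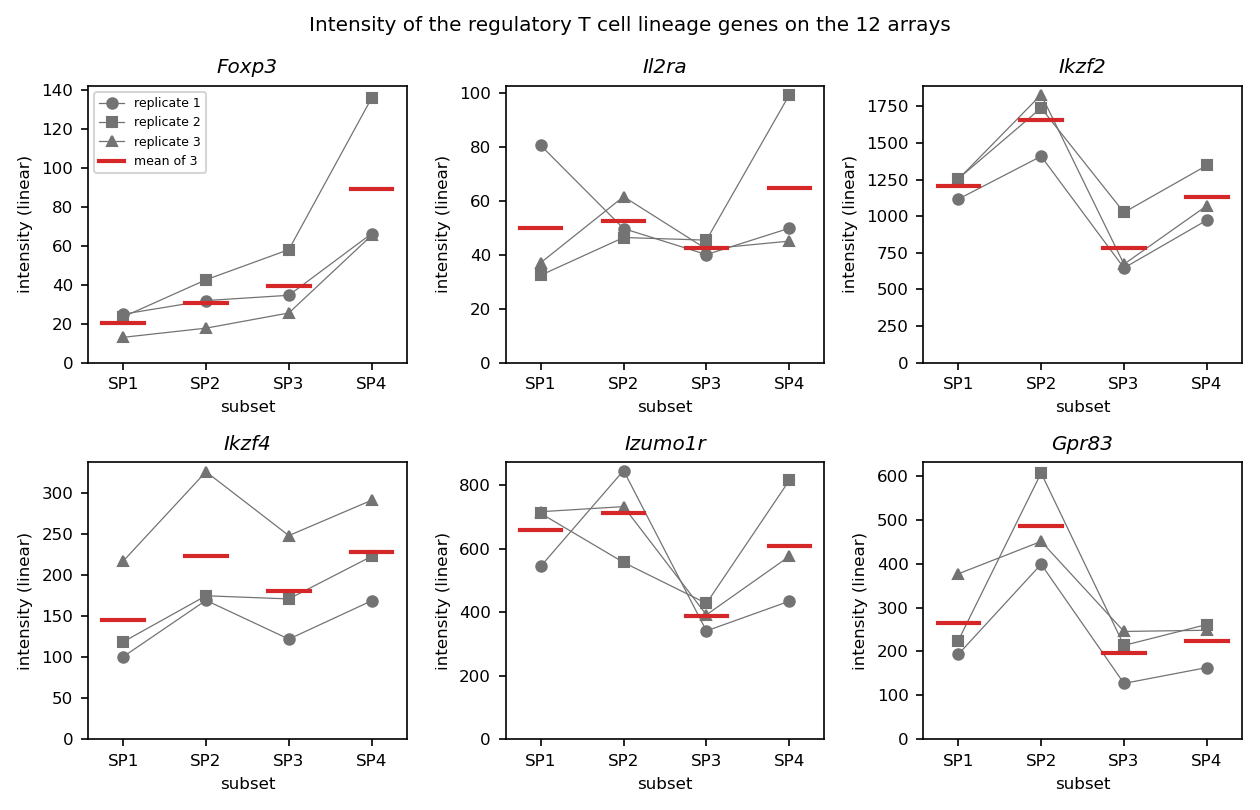
Linear intensity (y axis, from 0) of the 6 measured regulatory T cell lineage genes on the 12 arrays, by subset (x axis); symbols joined by a line are arrays of 1 replicate number and red bars are means of 3 arrays. Foxp3 reads 65.3 or more in SP4, while Ikzf2, Izumo1r and Gpr83 are lower in SP3 than in SP2 on every array.

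Il2ra, the target of the CD25 gate, stayed low in all subsets. Its brighter probe set read 80.6, 32.4 and 37.1 in SP1, 49.7, 46.4 and 61.6 in SP2, 40.1, 45.4 and 42.1 in SP3, and 49.9, 99.3 and 45.1 in SP4. The highest values were a single SP4 array and a single SP1 array, and the ranges of those subsets overlapped. The log2 difference of SP4 over SP1 was 0.30 (95% interval -0.30 to 0.90, limma adjusted p = 0.985). The second probe set read between 20.2 and 50.7, and neither probe set was called in any of the 6 comparisons with or without the block. All 12 intensities of the brighter probe set lay above the 90th percentile of the genes of other organs, and all but the highest SP1 and SP4 arrays lay below the highest of those genes.

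Ikzf2 had its highest level in SP2 and its lowest in SP3. Its intensity was 1116, 1256 and 1252 in SP1, 1409, 1738 and 1829 in SP2, 646, 1025 and 672 in SP3, and 972, 1346 and 1071 in SP4. Every SP3 array lay below every SP2 and every SP1 array, and SP3 overlapped only with SP4.

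Ikzf2 averaged 781 ± 212 in SP3 and 1659 ± 221 in SP2 (SD, n = 3 each), a log2 difference of -1.09 (SE 0.20, 95% interval -1.54 to -0.65), lower in 3 of 3 pairs. Without the block it did not pass (limma adjusted p = 0.401), and with the block it fell (limma adjusted p = 0.0103, called in 9 of 12 omissions of 1 array). At SP4 it was higher than at SP3 by 0.54 on the log2 scale in 3 of 3 pairs (limma adjusted p = 0.856, and 0.0975 with the block), and SP4 over SP1 was -0.11 (95% interval -0.55 to 0.34).

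The other probe sets of Ikzf2 moved alike. The second read 666, 731 and 249 in SP1, 935, 1108 and 433 in SP2, 403, 473 and 174 in SP3, and 636, 836 and 262 in SP4. Here replicate 3 read lower than replicates 1 and 2 in every subset, so the subsets overlapped although each pair moved in the same direction. With the block this probe set fell by 1.21 on the log2 scale at SP3 against SP2 (limma adjusted p = 0.00111) and rose by 0.66 at SP4 against SP3 (limma adjusted p = 0.0131). The third probe set was dim, between 9.96 and 68.8, and fell by 0.77 at SP3 against SP2 with the block (limma adjusted p = 0.0347).

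Gpr83, at SP3 against SP2, had the largest log2 difference between neighbouring subsets among the 6 members. It read 193.4, 224.9 and 377.2 in SP1, 399.1, 607.2 and 451.1 in SP2, 127.1, 213.8 and 245.6 in SP3, and 163.2, 261.5 and 248.4 in SP4. The 3 SP2 arrays lay above all 9 arrays of the other subsets. Gpr83 averaged 195 ± 61.4 in SP3 and 486 ± 108 in SP2, a log2 difference of -1.27 (SE 0.30, 95% interval -1.93 to -0.61), lower in 3 of 3 pairs. It did not pass without the block (limma adjusted p = 0.723) and fell with it (limma adjusted p = 0.0162, called in 7 of 12 omissions of 1 array), but not with the number as a random block (limma adjusted p = 0.0540).

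Gpr83 was also lower in SP4 than in SP2. It averaged 224 ± 53.4 in SP4 and 486 ± 108 in SP2, a log2 difference of -1.07 (limma adjusted p = 0.270, and 0.00515 with the block, called in 12 of 12 omissions). SP2 exceeded SP1 by 0.87 on the log2 scale with no overlap (limma adjusted p = 1.00, and 0.169 with the block). The second probe set of Gpr83 fell with the block by 1.10 at SP3 against SP2 (limma adjusted p = 0.0311) and by 0.80 at SP4 against SP2 (limma adjusted p = 0.0284).

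Izumo1r read 544, 711 and 716 in SP1, 846, 556 and 732 in SP2, 341, 427 and 391 in SP3, and 434, 814 and 575 in SP4. All SP3 arrays lay below the arrays of every other subset, and the other 3 subsets overlapped with each other. It averaged 386 ± 43.5 in SP3 and 711 ± 146 in SP2, a log2 difference of -0.84 (SE 0.24, 95% interval -1.36 to -0.31), lower in 3 of 3 pairs. The difference passed in neither fit (limma adjusted p = 1.00, and 0.149 with the block), nor did that of SP4 over SP3, 0.59 (limma adjusted p = 0.935, and 0.274 with the block).

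Ikzf4 read 100.5, 118.6 and 217.2 in SP1, 169.3, 174.9 and 326.2 in SP2, 122.0, 171.0 and 248.3 in SP3, and 168.8, 223.0 and 291.4 in SP4. Replicate 3 was the brightest in every subset, so all subsets overlapped. SP4 averaged 228 ± 61.5 and SP1 145 ± 62.8, a log2 difference of 0.63 (SE 0.34, 95% interval -0.12 to 1.38), higher in 3 of 3 pairs. Without the block it did not pass (limma adjusted p = 0.771), and with the block Ikzf4 rose (limma adjusted p = 0.00908, called in 10 of 12 omissions of 1 array), but not with the number as a random block (limma adjusted p = 0.118). Its second probe set rose by 0.75 with the block (limma adjusted p = 0.0232), and the third, between 18.8 and 31.4, differed by 0.055.

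**Figure D2:**
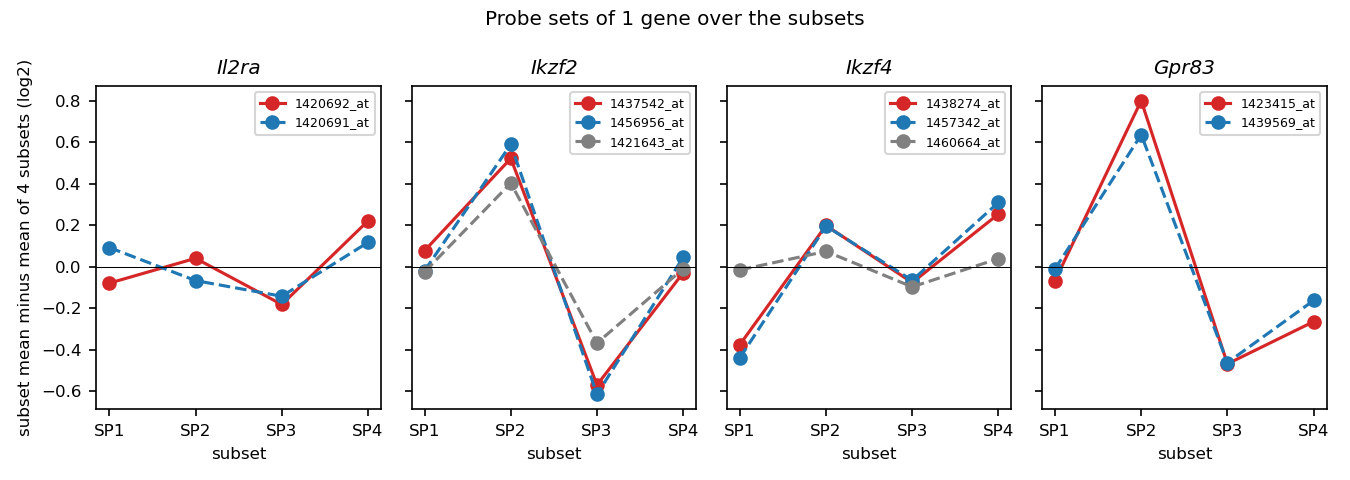
Subset mean of each probe set minus its mean over the 4 subsets (y axis, log2 of intensity plus 16) by subset (x axis) for the 4 members with more than 1 probe set; the red line is the brightest probe set. The 3 probe sets of Ikzf2 and both of Gpr83 peak in SP2 and are lowest in SP3, and the dim probe set of Ikzf4, whose SP4 and SP1 means differ by 0.055, is nearly level.

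Read by comparison, the fit without the block called 0 of the 6 members at SP2 against SP1, SP3 against SP2, SP4 against SP3, SP3 against SP1 and SP4 against SP2, and 1 at SP4 against SP1. It called 0%, 0%, 0.225%, 0.011%, 0.775% and 1.52% of all genes in that order of comparisons. At an unadjusted p under 0.05 the same limma fit held 2, 3, 3, 2, 3 and 1 of the 6 members. The share of all genes at that unadjusted threshold was not taken. Counts at it, here and for the lists below, therefore have no reference and are not read as an excess. A SAM-type permutation statistic called 0 in all 6 comparisons. The permutations of that statistic included the observed split and its mirror. With 3 arrays per subset, its false discovery rate could hardly fall below 0.05. Its 0 calls, here and for the lists below, therefore decide nothing. With the block, 0 members passed at SP2 against SP1 and at SP3 against SP1, where 0.0055% and 0.44% of all genes passed. With the block 2 passed at SP3 against SP2 (Ikzf2 and Gpr83 fell, with 0.28% of all genes called and 0.17% lower), 1 at SP4 against SP3 (Foxp3 rose, with 1.5% called and 1.21% higher), 2 at SP4 against SP2 (Foxp3 rose and Gpr83 fell, with 3.42% called, 2.45% higher and 0.978% lower) and 2 at SP4 against SP1 (Foxp3 and Ikzf4 rose, with 6.06% called and 4.16% higher). For any difference among the 4 subsets, the moderated F-test in limma called 0 of 6 members without the block, against 0.835% of all genes, and 4 of 6 with it (Foxp3, Ikzf2, Ikzf4 and Gpr83), against 4.66%.

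Counted by arrays that did not overlap, Ikzf2 and Gpr83 were higher in SP2 than in SP1, as were 4.92% of all genes. Il2ra, Ikzf2, Izumo1r and Gpr83 were lower in SP3 than in SP2, as were 3.66%. For Il2ra this gap was narrow, from 45.4 at most in SP3 to 46.4 at least in SP2, and its second probe set overlapped. Foxp3 and Izumo1r were higher in SP4 than in SP3 (4.74% of all genes). The gap of Izumo1r was narrow as well, from 427 at most in SP3 to 434 at least in SP4. At SP3 against SP1, Foxp3 was higher (4.29%) and Ikzf2 and Izumo1r were lower (3.51%). At SP4 against SP2, Foxp3 was higher (5.56%) and Ikzf2 and Gpr83 were lower (7.29%), and at SP4 against SP1 Foxp3 alone was higher (7.38%).

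**Figure D3:**
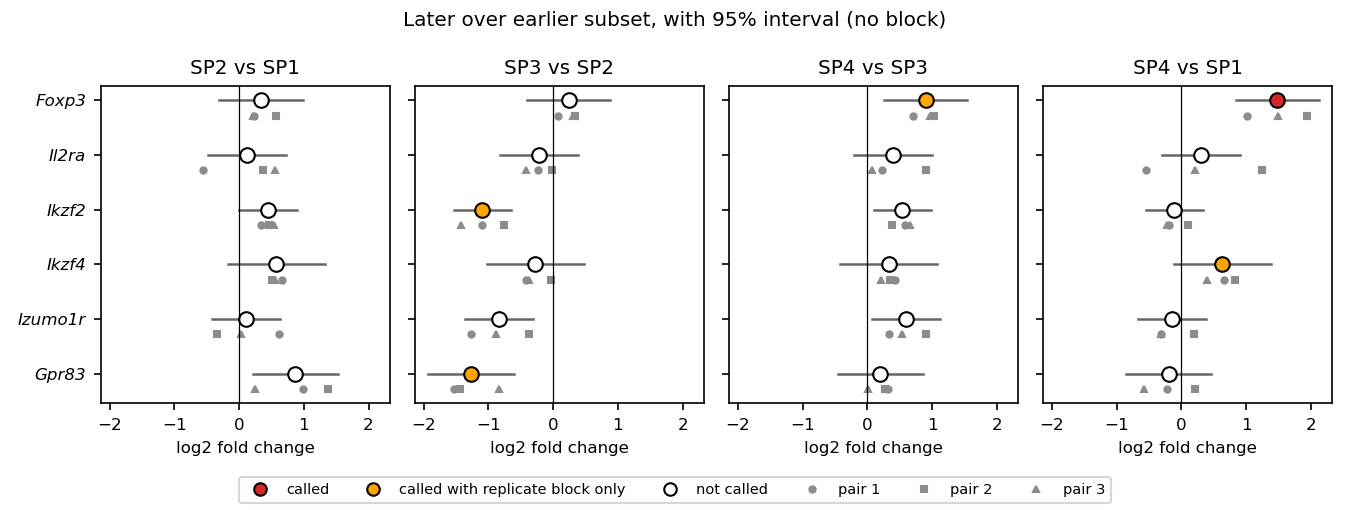
Log2 difference of the later over the earlier subset (x axis) for the 6 members (rows) in 4 comparisons (panels), with bars for the 95% interval of the fit without the block and small grey symbols for the 3 replicate pairs. Only Foxp3 at SP4 against SP1 is called in both fits (red), while the orange points are called with the replicate block alone.

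All measured members but Foxp3, 5 of 6, were lower in SP3 than in both SP2 and SP4 within each of the 3 replicates, as were 4.68% of all genes. This held at the probe set read for each gene. In replicate 2 the log2 difference of SP3 over SP2 was only -0.023 for Il2ra and -0.029 for Ikzf4. The other probe sets of Ikzf2 and Gpr83 kept the pattern, but those of Il2ra and Ikzf4 did not. In replicate 3 the second probe set of Il2ra read 24.4 in SP3 and 20.8 in SP2. In replicate 2 that of Ikzf4 read 92.2 in SP3 and 78.2 in SP2. This pattern was chosen for description after the values had been seen. The median log2 difference of the 6 members was 0.39 at SP2 against SP1, -0.56 at SP3 against SP2 and 0.47 at SP4 against SP3, where the medians of all genes were 0.0079, 0.0017 and -0.016. In bulk samples of this kind, fewer cells of a type and less RNA per cell cannot be told apart.

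Markers of cortical double positive thymocytes summed higher in SP3 than in SP2. They also summed higher in SP1 than in SP2 in each replicate, though by little in replicate 3. The summed intensity of 14 such genes was 16296, 9707 and 3536 in SP3, against 3770, 2199 and 2011 in SP2. At SP4 it was 4844, 4668 and 2111, and at SP1 it was 9314, 9705 and 2128. Of the 14 genes, 12 had a higher mean in SP3 than in SP2, with a median log2 difference of 1.92. In limma 0 passed without the block, and 9 had an unadjusted p under 0.05. With the block 2 rose (Cd8a by 2.28 and Cd8b1 by 2.44, the 2 chains of the CD8 coreceptor), where 0.28% of all genes were called. The sum was thus higher in SP3 than in SP2 in each replicate, and it was lowest in replicate 3, the pair in which Ikzf2 differed most (-1.42 on the log2 scale) and Gpr83 least (-0.84). The part of these markers in the lower values at SP3 was not tested.

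Beyond the members, 28 of 29 listed surface and effector genes of regulatory T cells were measured. At SP4 against SP1, 4 rose and 0 fell in limma: Itgae (2.52, the integrin CD103), Nt5e (2.18, the ectoenzyme CD73), Fgl2 (1.29, a secreted suppressor molecule) and Pdcd1 (1.18, the inhibitory receptor PD-1). The median log2 difference of the list was 0.26, against -0.013 for all genes. This comparison called 1.52% of all genes without the block and 6.06% with it. With the block 10 rose and 2 fell, among them the inhibitory receptor gene Ctla4 (1.21, limma adjusted p = 0.340 without the block and 0.00296 with it) and the costimulatory receptor gene Icos (1.10, limma adjusted p = 0.363 without the block and 0.00124 with it). The lowest differences were those of Ccr4 (-1.03), a chemokine receptor, Tnfrsf9 (-0.58), the costimulatory receptor 4-1BB, and Swap70 (-0.30), and the first 2 fell with the block.

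At SP4 against SP3, Nt5e (1.60) and Fgl2 (1.48) rose among these genes in limma. Of the 28 genes, 26 had a higher mean, and the median difference was 0.48, against -0.016 for all genes. The share of all genes with a higher mean was not taken. With the block 10 rose and 0 fell, where 1.5% of all genes were called (0.225% without it). At SP4 against SP2, Itgae (3.09), Nt5e (1.66) and Fgl2 (1.46) rose and Tnfrsf9 fell by 1.41, where 0.775% of all genes were called. At SP2 against SP1, 0 of the 28 passed in either limma fit, 4 had an unadjusted p under 0.05, and the SAM-type statistic called 0.

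At SP3 against SP2, 0 of the 28 passed without the block (3 at an unadjusted p under 0.05 in limma, and 0 by the SAM-type statistic) and 2 fell with it, Tnfrsf9 by 1.93 (limma adjusted p = 0.0530 without the block and 0.000101 with it) and the chemokine receptor gene Ccr8 by 1.12 (limma adjusted p = 0.401 without the block and 0.0165 with it). With the block 0.28% of all genes were called in this comparison. Tnfrsf9 averaged 194 ± 10.3 in SP3 and 797 ± 166 in SP2. The receptor genes Tnfrsf18 (GITR) and Tnfrsf4 (OX40), which receive costimulation in regulatory T cell precursors, passed in neither fit. Tnfrsf18 averaged 651 ± 288 in SP3 and 1258 ± 539 in SP2, and Tnfrsf4 averaged 574 ± 327 in SP3 and 1283 ± 787 in SP2.

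Of 30 listed genes that act on Foxp3 induction, 29 were measured. At SP4 against SP1, 2 rose in limma, Il2rb (1.61), the interleukin-2 receptor chain shared with interleukin-15, and Tgfbr2 (1.12), a receptor for TGF-β, and 0 fell. With the block 7 rose and 4 fell, where 6.06% of all genes were called (1.52% without it). The 3 lowest differences belonged to the nuclear receptors induced by antigen receptor signals, Nr4a1 (-1.24), Nr4a2 (-1.03) and Nr4a3 (-0.74). Nr4a1 (limma adjusted p = 0.0868 without the block and 0.000221 with it) and Nr4a2 (0.976 without the block and 0.00148 with it) fell with the block alone, and Nr4a3 passed in neither fit. The means of Nr4a1 were in the reverse order to those of Foxp3, with 2866 at SP1, 2529 at SP2, 1828 at SP3 and 1240 at SP4.

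Of 10 listed genes that are low in regulatory T cells, 9 were measured, and 3 rose at SP4 against SP1: Igfbp4 (2.08), Dapl1 (1.70) and the phosphodiesterase gene Pde3b (1.42). The 3 lowest were Satb1 (-0.58), Lef1 (-0.52) and Bach2 (-0.21), of which Satb1 fell with the block. Genes that are high and genes that are low in regulatory T cells were thus both among those called higher in SP4. Without the block 1.22% of all genes rose at SP4 against SP1. Of the 5 Ikaros family genes, 0 passed in any comparison in limma without the block or by the SAM-type statistic (1 or 2 at an unadjusted p under 0.05 in each comparison, and 3 calls in all with the block, Ikzf2 at SP3 against SP2 and Ikzf3 and Ikzf4 at SP4 against SP1), and Ikzf3 (Aiolos) differed by 0.60 and Ikzf1 (Ikaros) by 0.33 at SP4 against SP1.

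The higher Foxp3 of SP4 went with markers of other T cells. The summed intensity of 14 genes of NKT and innate-like T cells was 4851 to 7080 in SP4, against 2391 to 3569 in SP3 and 2214 to 2967 in SP1. Of the 14 genes, 8 rose at SP4 against SP1 (12 with the block), as did 1.22% of all genes (4.16% with the block). Zbtb16, the transcription factor PLZF that defines NKT cells, read 174 to 317 in SP4, against 59.1 to 121 in SP3 and 13.0 to 36.9 in SP1. The summed intensity of 11 activated or memory T cell genes was 3506 to 5167 in SP4, against 2802 to 2910 in SP3 and 1435 to 2943 in SP1. Il2rb and Icos, counted above, are also in the NKT list, and Il2rb in the memory list as well. The part of such cells in the level of Foxp3 and of the called effector genes was not tested.

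**Figure D4:**
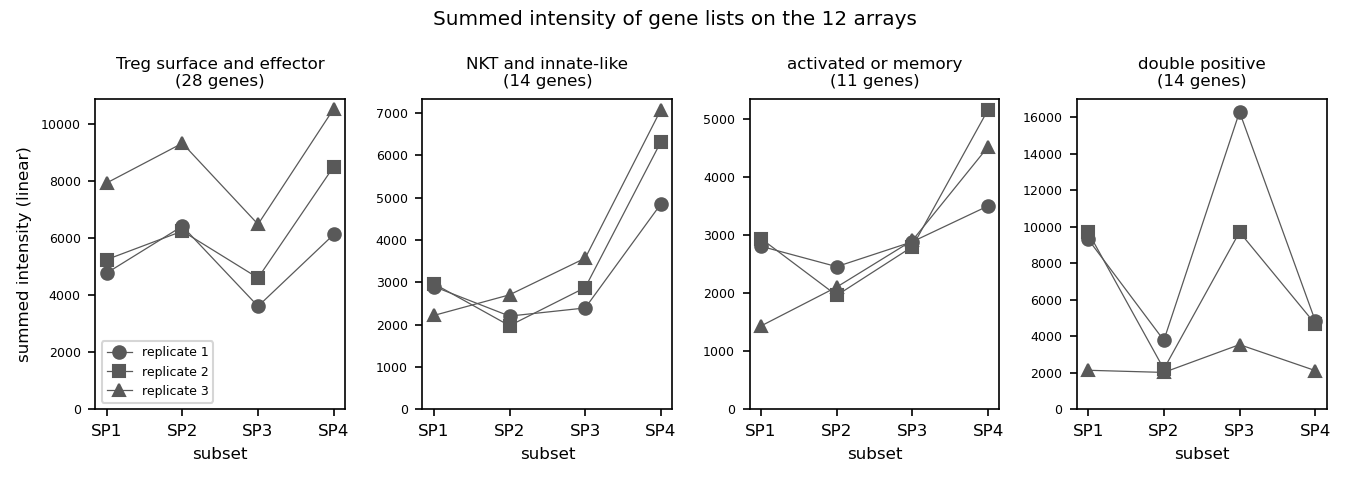
Summed linear intensity (y axis, from 0) of 4 gene lists on the 12 arrays by subset (x axis), with arrays of 1 replicate number joined by a line. The NKT and innate-like list reaches 4851 to 7080 in SP4, and the double positive list is higher in SP3 than in SP2 in each replicate.

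Myeloid and dendritic cell markers were above the level of the genes of other organs on some arrays. The summed intensity of 11 such genes was 1011 to 1927 in SP4, against 959 to 1071 in SP3, 495 to 1139 in SP2 and 771 to 1890 in SP1. Cst3, a protease inhibitor abundant in myeloid and dendritic cells, averaged 503 in SP4 and 657 in SP1, and Lyz2, the lysozyme of macrophages, averaged 220.1 in SP4 and 223 in SP1. Siglech, a marker of plasmacytoid dendritic cells, averaged 159 in SP4, against 44.5 in SP3 and 38.0 in SP2, and rose in both comparisons (1.54 with limma adjusted p = 0.0482, and 1.70 with limma adjusted p = 0.0128). Of the 11 genes, 9 had a higher fitted level in SP4 than in SP3, 11 in SP4 than in SP2 and 8 in SP4 than in SP1, while 10 were lower in SP2 than in SP1 and 10 were higher in SP3 than in SP2. Their part in the levels of the members was not tested.

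The summed intensity of 7 B cell genes was 208 to 406 in SP4, against 203 to 231 in SP3, 167 to 249 in SP2 and 163 to 565 in SP1, and 0 passed in any comparison (0 to 3 at an unadjusted p under 0.05 in limma). That of 10 endothelial and platelet genes was 362 to 637 in SP4, against 342 to 531 in SP3, 318 to 630.1 in SP2 and 329 to 463 in SP1. Among these Cdh5, the endothelial cadherin, averaged 45.4 in SP4 and 16.9 in SP1. Its list did not share a direction. At SP4 against SP1, 5 of the 10 genes were higher and 5 lower, with a median log2 difference of -0.0063. The sum of 9 epithelial and stromal genes was 191 to 276 over the 12 arrays.

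The genes most like each member were sought by Pearson correlation over the 12 arrays, each array taken relative to the mean of its replicate number, among genes with a mean intensity of at least 100. These values describe 12 arrays that share 4 subset means, and carry no test. Foxp3 was closest to Psen2, Adh1 and Pqlc3 (r = 0.97 each), which had the same order of subsets, Psen2 with a mean of 116 at SP1, 128 at SP2, 160.5 at SP3 and 292 at SP4. Izumo1r was closest to Tnfrsf18 (0.97), Abhd6 (0.95) and Srd5a3 (0.91). Gpr83 was closest to Cd5 (0.97), P2rx7 (0.97) and Mxd4 (0.96), and Cd5, a surface inhibitor of antigen receptor signals, averaged 2197 at SP1, 3224 at SP2, 1894 at SP3 and 2026 at SP4.

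Ikzf2 was closest to Rasal1 (0.92), Trpm1 (0.91) and Tnfrsf9 (0.90), and Ikzf4 to Slc25a45 (0.96), Irak2 (0.95) and Gm20300 (0.93). Il2ra had its nearest genes at 0.83 (Unc119), 0.82 (Dnmt3b) and 0.78 (Zfp628). Among the members themselves, Ikzf2 ran with Gpr83 (0.82) and Izumo1r (0.79), the neighbours Izumo1r and Gpr83 had 0.59, and Foxp3 had 0.69 with Ikzf4 and -0.29 with Gpr83.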

How the data were processed

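RNA of 12 preparations of sorted CD4 single positive thymocytes, 3 for each of SP1 to SP4, was measured on Mouse Genome 430 2.0 arrays. The deposited values are linear probe set intensity after background correction and between-array normalization by the authors. RMA is named in the methods and MAS5 in the submitters' notes, each with its version not given in the sources used here. The number of arrays limits the precision.

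Each gene was read at its probe set of highest mean, with one ending in _x_at only where no other existed. Values were log2(intensity + 16). The 12 arrays entered a single limma 3.58.1 model (R 4.3.3) of 4 subset means, with eBayes, a variance trend and 8 residual degrees of freedom. P-values were adjusted by Benjamini-Hochberg over all 45037 probe sets in each of 6 comparisons, and calls needed an adjusted p below 0.05, whatever the fold. The script was tested on simulated data.

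All members were named with every probe set, and of each other list the called genes and the 3 highest or lowest in SP4 against SP1. For each member the 3 most correlated genes were named. The members and lists were chosen with earlier results of these data known.

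Arrays of the same replicate number deviated together from their subset means in all 18 pairs (correlations 0.278 to 0.921). The labels give only the number. The study names each of 3 array repeats by a date code shared by all 4 subsets, and 1 repeat was years later than the others. Neither labels nor files tie a code to a number, so the pairing used here rests on the shared number and on the correlations. Arrays of numbers 1 and 2 also deviated together across subsets (12 pairs, correlations 0.255 to 0.777). The correlations thus set replicate 3 apart, but do not show that numbers 1 and 2 mark separate pairs. Replicate 3 correlated with replicates 1 and 2 between -0.852 and -0.438. The number was used as a block (6 residual degrees of freedom) beside the unpaired fit. Alternatives were the offset, normalization, filter, variance trend, arrays in the fit, probe set rule, a SAM-type statistic, a random block, and omission of arrays.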

Additional observations from a re-analysis of the deposited data

How the results depend on the processing

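With the replicate number as a block, 4 members passed the F-test (main 0), 2 were called at SP3 against SP2, 1 at SP4 against SP3, 2 at SP4 against SP2 and 2 at SP4 against SP1, and the limma adjusted p was 0.0103 for Ikzf2 (-1.09) and 0.0162 for Gpr83 (-1.27) at SP3 against SP2. A random block gave 3 by the F-test, 1, 1 and 2 at SP3 against SP2, SP4 against SP3 and SP4 against SP2, and 0.0213 for Ikzf2, and lost the blocked calls of Gpr83 at SP3 against SP2 (limma adjusted p = 0.0540) and Ikzf4 at SP4 against SP1 (0.118). Replicates 1 and 2 alone with the block, chosen after seeing the data, gave 2 by the F-test, 1 at SP3 against SP2, 2 at SP4 against SP2, and a call of Gpr83 (-1.49) at SP3 against SP2. The call of Foxp3 at SP4 against SP1 (1.48) was lost without a variance trend (limma adjusted p = 0.0611), with the arrays of both subsets alone (0.116) and with the SAM-type statistic (0.131), leaving 0 members, and its size was 0.83 with an offset of 64 and 2.04 with an offset of 1. The number of members called was also 0 under a minimum mean of 50, which leaves Foxp3 (44.9) untested. The SAM-type value could hardly fall below 0.05 with 3 arrays per subset, so its loss of the call decides nothing. The block changed no other call of a member's read probe set.

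Calls over the 6 comparisons were 10 for surface and effector genes, 4 for Foxp3 induction, 6 for genes low in regulatory T cells and 0 for the Ikaros family. With the block they were 37, 17, 11 and 3. A random block gave 24, 11 and 2 for the first, second and last. Both subsets' arrays alone gave 2, 1 and 2 for the first 3, and the SAM-type statistic 0 for each. Replicates 1 and 2 alone gave 18 and 12 for the first 2, and 25 and 13 with the block. The cause of these shifts was not tested.

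With 1 array left out, the lists gave 6 to 13, 1 to 4, 3 to 6 and 0 calls, and members at SP4 against SP1 0 to 1. With 1 array left out and the block, members called were 3 to 5 by the F-test, 0 to 2 at SP3 against SP1, SP3 against SP2 and SP4 against SP3, 2 to 3 at SP4 against SP2 and 1 to 2 at SP4 against SP1. The log2 difference of Foxp3 at SP4 against SP1 was 1.18 to 1.65, that of Ikzf2 at SP3 against SP2 was -1.30 to -0.98, and that of Gpr83 -1.49 to -1.01, over the omissions with and without the block. Signs turned only for differences that had not passed. Il2ra at SP2 against SP1 was -0.020 with all probe sets averaged and -0.094 with replicates 1 and 2 alone, with or without the block, and -0.15 to 0.49 with 1 array left out. Il2ra ranged from -0.38 to 0.27 at SP3 against SP1, -0.059 to 0.67 at SP4 against SP1 and -0.18 to 0.38 at SP4 against SP2. Ikzf4 ranged from -0.52 to 0.012 at SP3 against SP2 and -0.13 to 0.34 at SP4 against SP2. Izumo1r ranged from -0.17 to 0.39 at SP2 against SP1, -0.38 to 0.069 at SP4 against SP1 and -0.53 to 0.027 at SP4 against SP2. Gpr83 ranged from -0.40 to 0.071 at SP4 against SP1 and -0.055 to 0.40 at SP4 against SP3. Foxp3 in SP1 and in replicate 3 of SP2 and SP3 lies near the level of genes of other organs. So do the dim probe sets of Il2ra, Ikzf2 and Ikzf4, and small differences there were not detectable.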
